A study of Mus musculus with 12 samples.

Results

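The mouse genome names many zinc finger proteins Zfp followed by a number, and 158 protein-coding genes named in this way were among the 9374 genes measured in blood neutrophils. They were taken by symbol alone (Zfp, digits, and an optional letter or l with a digit), with no use of their expression. The cells came from the blood of female mice of 2 genotypes, WT and Hmgb1ΔMye, written KO in the library labels. ΔMye is the usual notation for a deletion in myeloid cells; the labels name no Cre driver and no floxed allele. Mice received saline or lipopolysaccharide (LPS, the outer membrane component of Gram-negative bacteria) at 0.5 mg/kg, and 16 h was the exposure in all 4 groups. Each group had 3 libraries: WT-Saline and WT-LPS, with KO-Saline and KO-LPS as their counterparts. Whether the libraries within a group stem from separate mice is not stated in the labels; p-values therefore reflect only the spread among these libraries, which may be technical.

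Most Zfp proteins carry tandem C2H2 zinc fingers, each of which folds around a zinc ion and reads a few bases of DNA. Many of them add a KRAB domain, which recruits the corepressor Trim28 and with it histone methylation that silences transposable elements. A small branch has a different, CCCH type of finger and binds RNA: Zfp36 (tristetraprolin), Zfp36l1 and Zfp36l2 attach to AU-rich elements of messenger RNAs, bring in the CCR4-NOT deadenylase and so shorten the life of cytokine messages, a brake on inflammation that is well known in myeloid cells.

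The libraries held 399702 to 526757 reads in the deposited table, and the Zfp genes took 0.801% to 0.897% of them. The labelled cell type had its markers: all 12 neutrophil genes looked for were in the table, with a summed level of 13501 to 18558 CPM (reads divided by the scaled size of each library) in WT-Saline and 28154 to 30097 in WT-LPS. Platelet markers were also present (3 of 7, without Pf4 and Ppbp), with sums of 523 to 779 CPM in WT-Saline against 161 to 255 in WT-LPS. Between these groups 9 neutrophil markers rose and 1 fell, and the 3 platelet markers fell. Of the monocyte and macrophage, dendritic, B, T and NK, erythroid, and eosinophil and basophil markers, 5 of 8, 3 of 6, 1 of 6, 3 of 10, 1 of 6 and 1 of 7 were in the table. With LPS in WT the B cell marker rose, from 9.68 to 29.6 CPM in WT-Saline to 101 to 134 in WT-LPS. Of the monocyte and macrophage markers 1 rose and 2 fell, and 1 dendritic and 1 T and NK marker fell. The part of all these cell types in the values below was not tested, and in bulk RNA fewer cells of a type and less RNA per cell cannot be told apart. Hmgb1, the targeted gene, had 8 to 17 reads in WT-Saline and 10 to 25 in KO-Saline, and 14 to 34 in WT-LPS against 6 to 30 in KO-LPS. Its log2 difference between KO and WT libraries was 0.53 ± 0.57 in saline and -0.21 ± 0.57 in LPS, neither called, so its reads do not check the genotype and the KO libraries are called KO-labelled here. KO-LPS replicate 1 stood apart from the other KO-LPS libraries for several Zfp genes named below and had the lowest neutrophil (22806 CPM) and highest platelet (496 CPM) marker sums of its group, so changes in KO-labelled libraries that pass the threshold or move by over 1.5 times when it is left out are given both ways.

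How the reads were counted with regard to strand is not given in the sources used here, and this bears on every level below. For 55 of the 158 Zfp genes (34.8%) exons were shared in part with an opposite-strand gene, against 3419 of 9299 annotated genes (36.8%). Of the 55 overlapping Zfp genes 22 (40%) had at least 20 reads per library, against 13 of the 103 (12.6%) without overlap. Among all genes these shares were 43.0% (1471 of 3419) with overlap and 33.1% (1944 of 5880) without. The 10 Zfp genes of highest CPM included 8 with such an overlap. Over the whole table, 161 of 215 long non-coding RNAs (74.9%) had more reads than the protein-coding gene on their other strand. A Zfp gene and its overlapping partner cannot be told apart without the strand setting, and whether the setting matched the library kit was not tested.

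Most Zfp genes were expressed at a low level. The median Zfp gene had 4.79 reads per library and the median gene overall 11.33. Under 5 reads were found for 81 Zfp genes (51.3%), against 29.7% of all genes, and at least 20 reads for 35 (22.2%), against 36.7%. A read was found in every library for 72 Zfp genes, while 13 had none in all 3 libraries of at least 1 group. A count of 0 in a library allows up to 5.58 to 8.0 CPM (a floor of 3 reads, counting error only). The few abundant genes carried the family: the top 5 held 44.0% and the top 10 held 57.1% of all 45332 Zfp reads.

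The level went with the kind of protein. A C2H2 finger pattern was found in the translated GENCODE coding sequence of 150 Zfp genes, with a median of 9 fingers and a range of 1 to 36. A KRAB pattern stood in 61 of these, which had a median of 11 fingers. The KRAB genes had a median of 3.42 reads per library, and only 3 of them reached 20 reads: Zfp950, Zfp871 (46.0 reads) and Zfp473 (43.4 reads, exons overlapping Vrk3). The 89 C2H2 genes without KRAB had a median of 6.58 reads, and 29 of them reached 20. The 8 genes with no C2H2 pattern, which include the 3 CCCH genes, had a median of 9.71. Per kb of exon the medians were 2.03, 3.16 and 6.76 CPM, in the same order.

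**Figure D1:**
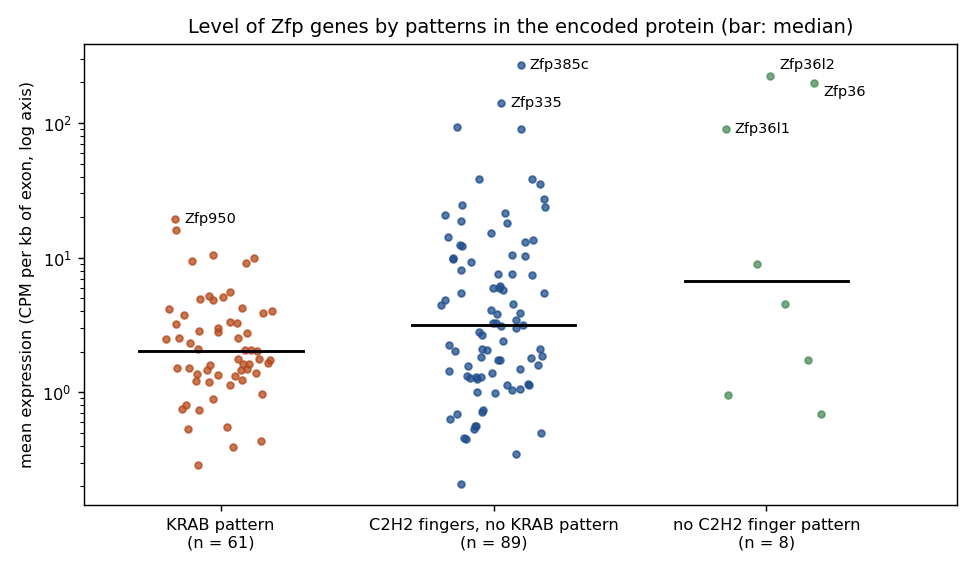
Mean expression of each Zfp gene over the 12 libraries, in CPM per kb of exon on a log axis, by the patterns found in its protein. Each point is a gene and each bar a group median (2.03, 3.16 and 6.76); Zfp385c, Zfp36l2 and Zfp36 lie highest.

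Chromosome 7 held 37 of the 158 genes, chromosome 17 held 15 and chromosome 13 held 14. On chromosome 17, 11 of the 15 had a KRAB pattern. None of the 14 on chromosome 13 reached 20 reads per library, while 9 of the 37 on chromosome 7 did. Within 100000 bases of another measured Zfp gene lay 57 genes, of which 32 had a KRAB pattern. Their median was 4.08 reads per library, beside 5.17 for the 101 others (29 with KRAB). Clustered Zfp genes are often near copies of each other, and how reads shared between such copies were assigned is not given in the sources used here.

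Compared per kb of coding sequence, the RNA-binding CCCH genes were all among the 5 highest. Mean levels over all libraries were 720 CPM per kb for Zfp36, 650 for Zfp385c, 543 for Zfp36l2, 338 for Zfp740 and 266 for Zfp36l1. This ranking depends on the length used. Per kb of exon the same genes had 199, 270, 223, 38.1 and 90.1 CPM, and Zfp740 and Zfp36l1 lay outside the 5 highest. Zfp609, a partner of the cohesin loader Nipbl, and Zfp335, a cofactor of histone methylation needed for T cell maturation, belonged to the 5 highest by CPM and were not called with all 12 libraries in the fit. Zfp609 had a log2 difference between LPS and saline of -0.10 ± 0.23 in WT (95% interval -0.57 to 0.37), and Zfp335 of -0.20 (-0.62 to 0.22). In KO-labelled libraries these were -0.50 ± 0.23 (limma adjusted p = 0.256) and 0.00. Without KO-LPS replicate 1 the change of Zfp609 was -0.75 ± 0.20 and passed (limma adjusted p = 0.00952).

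LPS against saline in WT neutrophils asks which Zfp genes respond to the bacterial product. By limma, at a Benjamini-Hochberg adjusted p under 0.05 over all 9374 genes, 8 of the 158 changed (5.06%), where 11.7% of all genes did. Higher in LPS were 3 (6.72% of all genes) and lower 5 (4.96% of all genes). Zfp385c, Zfp36l1 and Zfp385a rose. Zfp36, Zfp36l2, Zfp106, Zfp652 and Zfp791 fell. The groups did not overlap for 39 Zfp genes, or 24.7%, beside 30.6% of all genes. Of these 18 were higher in LPS (16.5% of all genes) and 21 lower (14.1%). The median log2 change was 0.06, as for all genes. Numbers after ± for a log2 change are standard errors, and p-values are two-sided.

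**Figure D2:**
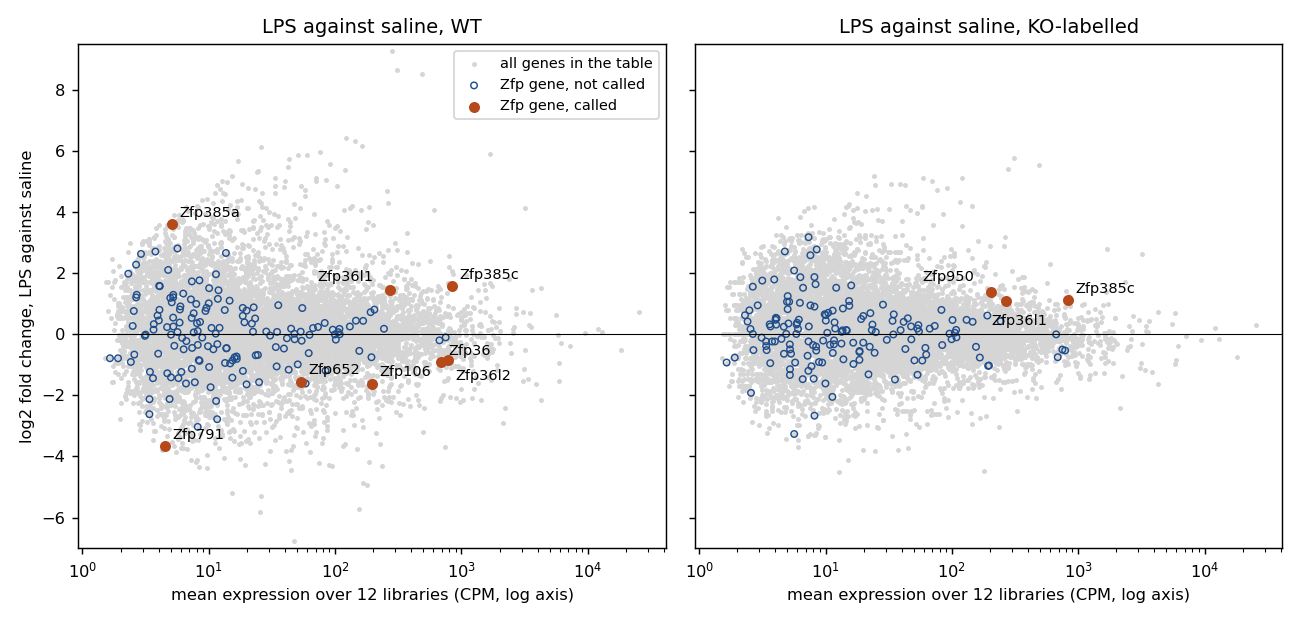
Log2 fold change between LPS and saline against mean expression (CPM, log axis) for all genes (grey), Zfp genes (open blue) and Zfp genes past the adjusted p of 0.05 (red), in WT and in KO-labelled libraries. The WT panel marks 8 called Zfp genes and the KO-labelled panel 3, all of the latter above 0.

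The 3 CCCH genes moved in opposite directions. Zfp36 (chromosome 7, 28376784 to 28380253, minus strand) had 404, 427 and 442 reads in WT-Saline and 231, 224 and 231 in WT-LPS. Every LPS library lay below every saline library. Its level was 901 ± 77.3 CPM (SD, n = 3) in saline and 483 ± 59.9 in LPS, a log2 change of -0.90 ± 0.29 (limma adjusted p = 0.0413). Its exons overlap 125 bases of Gm44710 on the other strand. Zfp36l2 (chromosome 17, 84183931 to 84187947, minus strand) had 422, 435 and 523 reads in saline and 253, 256 and 256 in LPS, again with no overlap of the groups. It went from 972 ± 51.0 to 538 ± 62.0 CPM (SD, n = 3), a log2 change of -0.86 ± 0.23 (limma adjusted p = 0.0126), and shares 105 exon bases with AC132455.1. Zfp36l1 (chromosome 12, 80107754 to 80113013, minus strand) went the other way. Its reads were 48, 70 and 100 in saline and 161, 203 and 221 in LPS. The level rose from 150 ± 35.1 to 407 ± 23.5 CPM (SD, n = 3), a log2 change of 1.46 ± 0.25 (limma adjusted p = 0.000147). It shares 1672 exon bases with Gm26669. Per kb of coding sequence in WT-LPS, Zfp36 stood at 505 CPM, Zfp36l1 at 401 and Zfp36l2 at 371, where in WT-Saline they had stood at 942, 148 and 669. The order of the 3 depends on the length used. By CPM alone Zfp36l2 (538) stood above Zfp36 (483) and Zfp36l1 (407) in WT-LPS.

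In KO-labelled libraries Zfp36l1 rose as well, and the pair that fell in WT did not pass. Zfp36l1 had 62, 67 and 80 reads in KO-Saline against 133, 126 and 183 with LPS, a log2 change of 1.07 ± 0.25 (limma adjusted p = 0.0118) with no overlap. Zfp36 had 330, 366 and 313 reads in KO-Saline against 394, 132 and 149 with LPS. Replicate 1 lay above all 3 saline libraries and the other two far below them. The log2 change was -0.75 ± 0.29 (limma adjusted p = 0.172), and without KO-LPS replicate 1 it was -1.32 ± 0.19 (limma adjusted p = 3.96e-06). Zfp36l2 had 468, 443 and 295 reads in KO-Saline against 340, 211 and 277 with LPS, with overlapping groups. Its log2 change was -0.53 ± 0.23 (limma adjusted p = 0.225), and -0.77 ± 0.20 without that library (limma adjusted p = 0.00904).

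**Figure D3:**
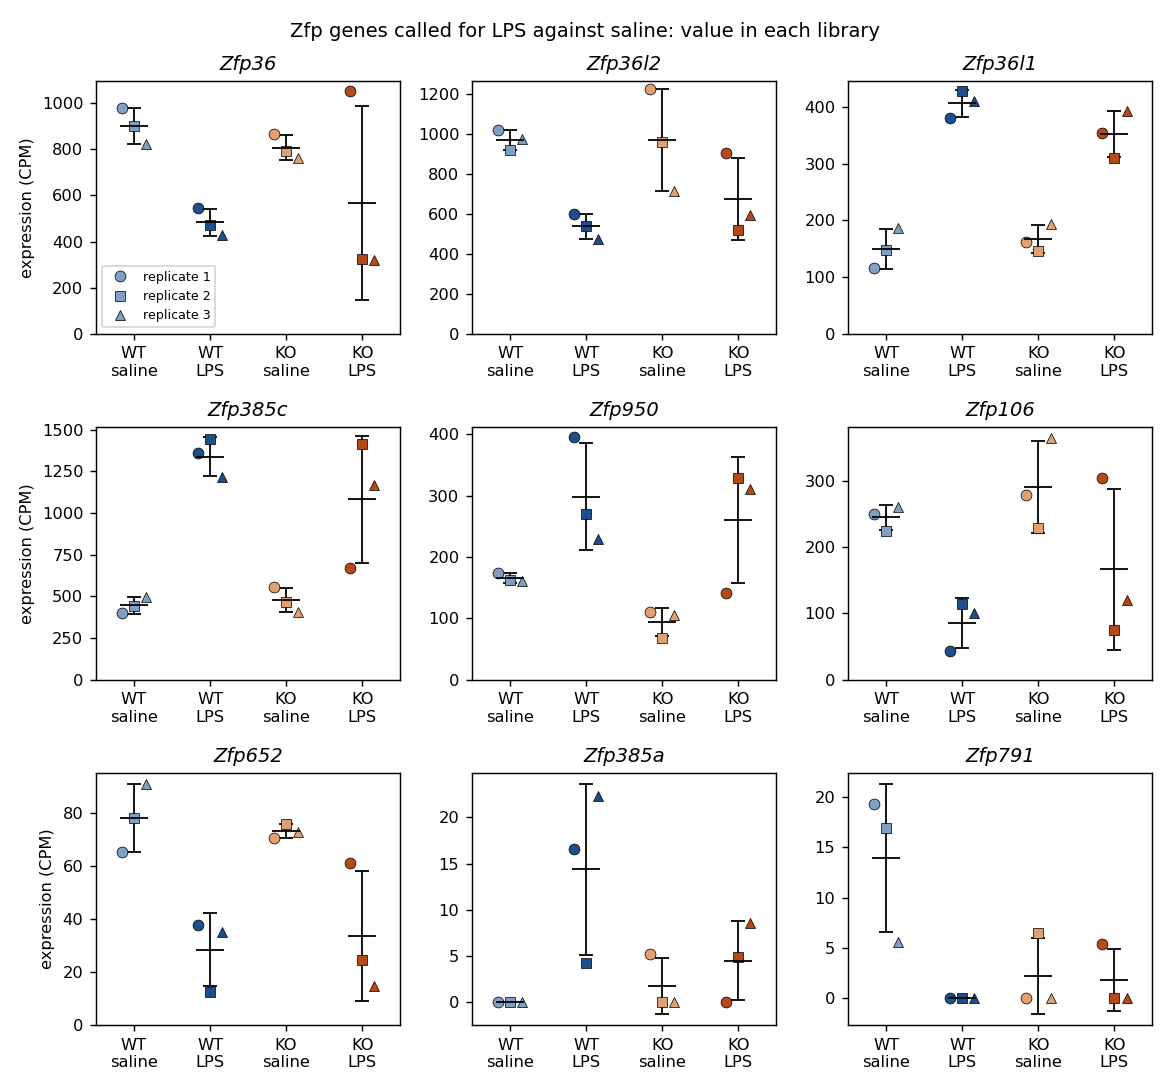
CPM of the Zfp genes called in any comparison, by library in the 4 groups, with the group mean and SD. KO-LPS replicate 1 lies apart from the other KO-LPS libraries for Zfp36, Zfp385c, Zfp950 and Zfp106.

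Zfp385c, a C2H2 gene related to the RNA-binding factor Zfp385a, had the highest CPM of the Zfp genes and rose the most among those with over 100 reads. It lies on chromosome 11 (100627543 to 100692455, minus strand). WT-Saline libraries had 164, 210 and 267 reads against 574, 684 and 653 in WT-LPS. KO-Saline libraries had 212, 216 and 168 against 250, 573 and 545 in KO-LPS. The LPS libraries lay above the saline libraries in both genotypes, with KO-LPS replicate 1 between the saline libraries and the other two. The WT level went from 446 ± 50.2 to 1339 ± 116 CPM (SD, n = 3), a log2 change of 1.59 ± 0.24 (limma adjusted p = 3.15e-05). In KO-labelled libraries the change was 1.12 ± 0.24 (limma adjusted p = 0.00696), and 1.44 ± 0.19 without replicate 1 of KO-LPS (limma adjusted p = 8.15e-07). Its exons share 65 bases with Nkiras2, an inhibitor of NF-kB signalling, which had 27.1 reads per library and a log2 change in WT of 1.27 ± 0.49 (limma adjusted p = 0.0974).

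Zfp950, a KRAB gene with 17 fingers on chromosome 19 (61053840 to 61140840, minus strand), has no exon overlap with another gene on the opposite strand. WT libraries had 72, 77 and 86 reads with saline and 167, 128 and 123 with LPS. KO-labelled libraries had 42, 31 and 43 with saline and 53, 133 and 145 with LPS. LPS libraries were above saline libraries in both genotypes. It rose in KO-labelled libraries by 1.39 ± 0.31 on the log2 scale (limma adjusted p = 0.00984) and by 1.78 ± 0.28 without replicate 1 of KO-LPS (limma adjusted p = 1.3e-05). In WT its change was 0.80 ± 0.31 and did not pass (limma adjusted p = 0.0952). Of the 61 KRAB genes it had the highest level per kb of exon.

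Zfp36l1, Zfp385c and Zfp950 were the 3 Zfp genes called in KO-labelled libraries, and the 250 bases before their start sites are shown for that reason. The sequences are from RefSeq (GRCm38.p6), 5′ to 3′ on the minus strand on which all 3 genes lie. The windows cover chr12:80113014-80113263 for Zfp36l1, chr11:100692467-100692716 for the most distal start of Zfp385c, and chr19:61140841-61141090 for Zfp950. Capitals mark a match to the AP-1 letters TGANTCA in Zfp36l1 and to the GC box GGGGCGGGG, read on the other strand, in Zfp385c.
Zfp36l1: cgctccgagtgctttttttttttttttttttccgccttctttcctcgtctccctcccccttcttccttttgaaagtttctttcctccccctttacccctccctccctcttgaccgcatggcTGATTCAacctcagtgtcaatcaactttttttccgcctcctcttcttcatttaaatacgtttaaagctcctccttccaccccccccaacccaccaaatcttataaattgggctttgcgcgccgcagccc
Zfp385c: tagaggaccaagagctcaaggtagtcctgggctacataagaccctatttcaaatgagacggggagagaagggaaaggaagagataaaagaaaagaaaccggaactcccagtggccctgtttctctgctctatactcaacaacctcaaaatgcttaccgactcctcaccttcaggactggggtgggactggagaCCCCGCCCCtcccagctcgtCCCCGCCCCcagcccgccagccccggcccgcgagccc
Zfp950: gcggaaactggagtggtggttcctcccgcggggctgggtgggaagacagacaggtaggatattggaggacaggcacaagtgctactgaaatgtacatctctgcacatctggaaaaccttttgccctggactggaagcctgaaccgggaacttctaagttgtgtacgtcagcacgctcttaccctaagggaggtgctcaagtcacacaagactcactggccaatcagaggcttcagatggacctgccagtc
Searched on both strands were AP-1 TGANTCA, CRE TGACGTCA, C/EBP TTGCNNAA, GAS TTCNNNGAA, PU.1 GAGGAAG, the GC box, and the NF-kB, ISRE and CArG motifs. The AP-1 letters stand in 6.75% and the GC box in 10.4% of 32851 promoter windows of this length, so such matches are common. The Zfp950 window held none of the searched letters. RefSeq lists 2 further starts of Zfp385c, whose windows hold no GC box; one held no searched letters and the other a C/EBP and a PU.1 match. The GC content was 48.4%, 57.6% and 54%. No start site was measured here, and a match is a string of letters only.

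Among the other genes that fell in WT, Zfp106, an RNA-binding protein needed by motor neurons and muscle, had the best depth. It lies on chromosome 2 (120506820 to 120563843, minus strand) and shares 2719 exon bases with Gm26899. WT-Saline libraries had 103, 106 and 140 reads, and WT-LPS libraries 18, 54 and 54. KO-Saline libraries had 106, 105 and 150 reads, and KO-LPS libraries 114, 30 and 56. The WT groups were apart and the KO-labelled groups overlapped. The WT change was -1.62 ± 0.38 on the log2 scale (limma adjusted p = 0.0047). The KO-labelled change was -1.02 ± 0.38 (limma adjusted p = 0.149), and -1.58 without replicate 1 of KO-LPS (limma adjusted p = 0.000716).

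Zfp652, a repressor with 7 fingers, fell in WT by 1.55 ± 0.50 on the log2 scale (limma adjusted p = 0.0405). It had 27, 37 and 49 reads in WT-Saline and 16, 6 and 19 in WT-LPS, without overlap. In KO-labelled libraries the reads were 27, 35 and 30 in saline and 23, 10 and 7 in LPS, also apart, with a change of -1.33 ± 0.50 that did not pass (limma adjusted p = 0.154). Without KO-LPS replicate 1 it was -1.87 ± 0.51 and passed (limma adjusted p = 0.011). Its locus on chromosome 11 (95712673 to 95835115, plus strand) is crowded. It shares 2913 exon bases with Abi3 on the other strand, which had 5780 reads per library, and 1818 with Phospho1 on its own strand, which had 269. Abi3 changed by 0.06 ± 0.21 and Phospho1 by -0.07 in WT, neither called.

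Zfp385a and Zfp791 were called in WT on few reads and without any opposite-strand overlap. Zfp385a (chromosome 15, 103313895 to 103340093), a p53-induced factor that binds RNA, had 0 reads in every WT-Saline library and 7, 2 and 12 in WT-LPS. Against a floor of 3 reads per library it was at least 2.29-fold higher (limma adjusted p = 0.0289). In KO-labelled libraries it had 2 reads in saline and 6 in LPS in all, a ratio of 3.02 (95% counting interval 0.539 to 30.6), and its fitted log2 change was 1.07 ± 1.10, or 1.91 ± 1.21 without KO-LPS replicate 1, neither called. Zfp791 (chromosome 8, 85108553 to 85123095), a KRAB gene with 15 fingers, had 8, 8 and 3 reads in WT-Saline and 0 in every WT-LPS library. It was at least 2.11-fold lower (limma adjusted p = 0.0246). The KO-labelled libraries held 3 reads in saline and 2 in LPS, too few for a direction.

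Zfp740 shows a case in which a Zfp gene and its partner moved alike. WT libraries had 102, 129 and 146 reads with saline and 87, 51 and 92 with LPS. KO-labelled libraries had 77, 95 and 116 with saline and 69, 43 and 32 with LPS. LPS libraries were lower than saline libraries in both genotypes. The changes of -0.75 ± 0.31 (limma adjusted p = 0.127) and -1.04 ± 0.31 (limma adjusted p = 0.0665) did not pass. Without KO-LPS replicate 1 the latter was -1.40 (limma adjusted p = 0.000694). Csad, which shares 278 exon bases on the other strand and had 427 reads per library, fell by 1.14 ± 0.25 in WT and by 0.96 in KO-labelled libraries (limma adjusted p = 0.00223 and 0.0276).

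In KO-labelled libraries 3 of the 158 Zfp genes (1.90%) were called between LPS and saline, where 3.35% of all genes were. All 3 were higher (1.99% of all genes) and 0 lower (1.35%), and 21 had an unadjusted p under 0.05 (17.2% of all genes). The groups were apart for 17 (10.8%), beside 16.6% of all genes, with 11 higher (9.67%) and 6 lower (6.89%). Without KO-LPS replicate 1, 11 Zfp genes (6.96%) were called, and the share of all genes called was 11.5%. Zfp655 joined the 3 that rose, and Zfp652, Zfp106, Zfp740, Zfp36, Zfp217, Zfp36l2 and Zfp609 were lower by 1.87 to 0.75 on the log2 scale. The count thus depended on that library, but not on it alone, since it was 0 without KO-LPS replicate 2 or replicate 3. The calls in WT numbered 13 (8.23%) when KO-LPS replicate 1 was left out of the shared estimate of spread, beside 15.2% of all genes.

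Most of the 51 Zfp genes with at least 10 reads per library changed in the same direction in both genotypes. The groups were apart in both genotypes, in the same direction, for 10 Zfp genes (6.33%), a share near the 7% of all genes. Higher in LPS were 7 of them (4.47% of all genes): Zfp385c, Zfp36l1, Zfp950, Zfp46, Zfp655, Zfp653 and Zfp341. Lower were 3 (2.53% of all genes): Zfp740, Zfp652 and Zfp239. Some of these genes had few reads, such as Zfp653 with 2.5 and Zfp239 with 3.67 per library. No Zfp gene was apart in opposite directions (0.352% of all genes). The 2 comparisons use different libraries. Over the 158 genes the log2 changes in WT and in KO-labelled libraries correlated with r = 0.34, and 105 had the same sign. Over the 51 genes with at least 10 reads per library r was 0.59, with 41 of the same sign, and over the 7 with at least 100 reads it was 0.96, with 7. These correlations are across genes, which share libraries and depth and are not independent replicates. The correlations and counts of equal sign were not compared with those over all genes.

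**Figure D4:**
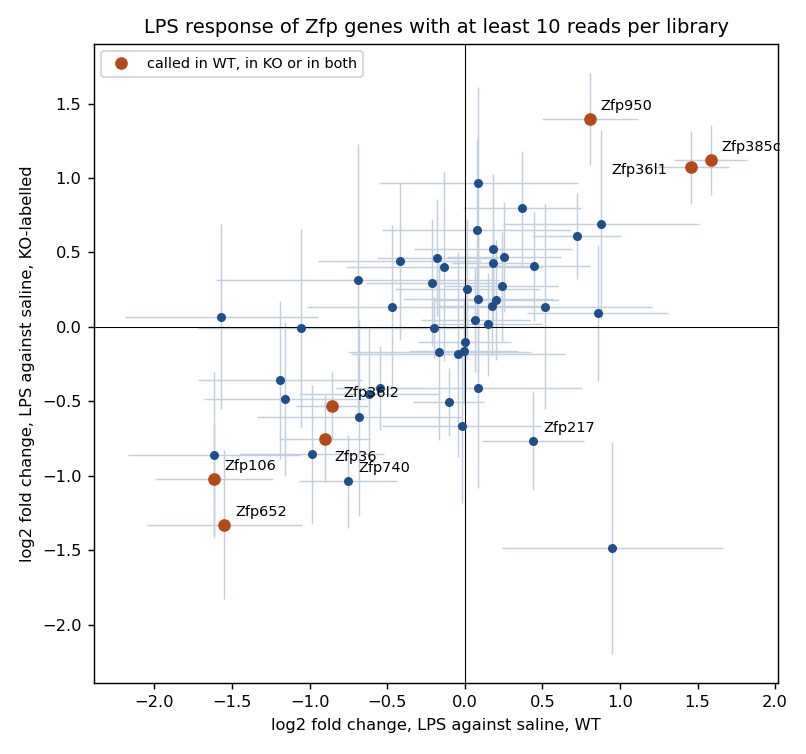
Log2 fold change between LPS and saline in WT (horizontal) and in KO-labelled libraries (vertical) for the 51 Zfp genes with at least 10 reads per library, with standard errors. Genes called in either genotype are red; 41 of the 51 lie in the quadrants of equal sign.

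Depth went with how often a Zfp gene was called. In WT, 4 of the 7 Zfp genes with at least 100 reads per library changed (57.1%), where 37.2% of all such genes did. At 20 to 100 reads 2 of 28 did (7.14%, against 19.0%), at 5 to 20 reads 0 of 42 (against 6.28%), and under 5 reads 2 of 81 (2.47%, against 2.81%). In KO-labelled libraries the shares were 2 of 7, 1 of 28, 0 of 42 and 0 of 81, beside 14%, 5.29%, 1.55% and 0.144% of all genes. The median standard error of the WT change was 1.11 on the log2 scale under 5 reads and 0.24 at 100 or more. Changes of the size seen in Zfp36 were therefore not detectable at this depth in most Zfp genes.

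**Figure D5:**
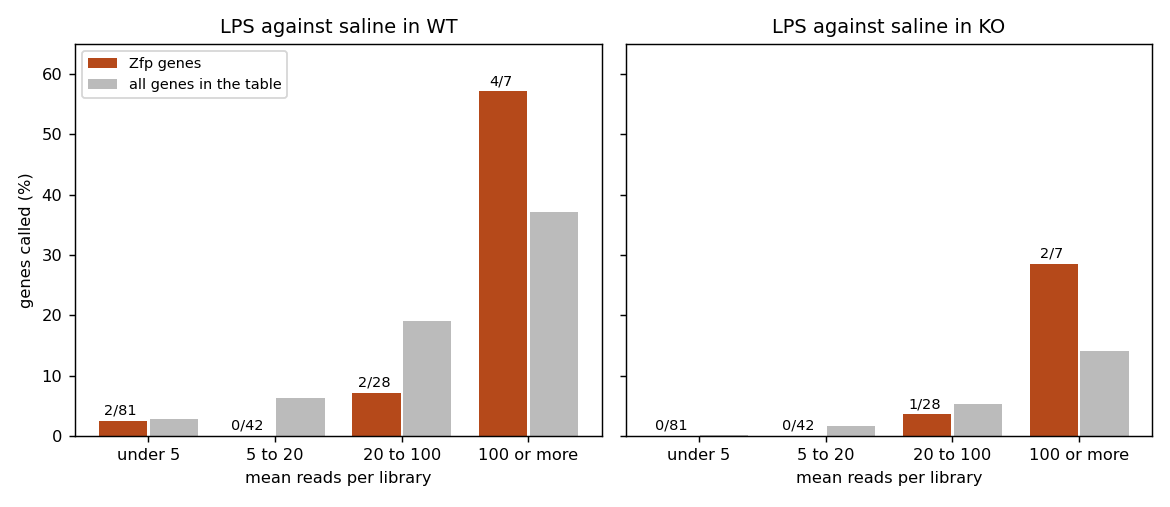
Share of genes called between LPS and saline by mean reads per library, for Zfp genes and for all genes, in WT and in KO-labelled libraries. Numbers over the bars give called Zfp genes out of those measured; in WT they are 2 of 81, 0 of 42, 2 of 28 and 4 of 7.

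KO-labelled against WT libraries asks whether the Hmgb1ΔMye genotype altered these genes. No Zfp gene passed limma's adjusted p in saline, where 0.0107% of all genes did, and none in LPS, where 0% did. At an unadjusted p under 0.05 there were 8 in saline and 5 in LPS, beside 6.86% and 5.02% of all genes, and limma with voom weights also called 0 in each. In saline the groups were apart for 15 Zfp genes, beside 12.1% of all genes, 6 higher (5.82%) and 9 lower (6.28%) in KO-labelled libraries. In LPS they were apart for 16, beside 9.79%, with 6 higher (4.32%) and 10 lower (5.47%). In saline the smallest p belonged to Zfp950, Zfp931 and Zfp407. Zfp950 was lower in each KO-Saline library than in any WT-Saline library, by 0.84 ± 0.31 on the log2 scale (limma adjusted p = 0.596). Zfp931 had 8, 5 and 8 reads in WT-Saline against 1, 1 and 0 in KO-Saline, and with LPS 6, 4 and 5 in WT against 1, 0 and 2 in KO-labelled libraries. Its reads were lower in KO-labelled libraries under both treatments. The pooled ratio in saline was 0.108 (95% counting interval 0.0123 to 0.443), and it did not pass (limma adjusted p = 0.596). Zfp931 was picked by its small p in these same saline reads, so the interval is no separate support. Zfp407 changed by -1.29 ± 0.52 (limma adjusted p = 0.626).

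With all 12 libraries in the fit, the smallest p in LPS belonged to Zfp704, Zfp830 and Zfp106. Zfp704 had 1 read in WT-LPS and 11 in KO-LPS in all (limma adjusted p = 0.944). Zfp830 had 24 and 5 (limma adjusted p = 0.949). Zfp106 differed by 0.82 ± 0.38 (limma adjusted p = 0.949), and by 0.26 ± 0.33 without KO-LPS replicate 1. Without that library Zfp704 differed by 2.59 ± 1.20 and Zfp830 by -3.94 ± 1.15 (limma adjusted p = 0.986 and 0.576). Zfp217, Zfp740 and Zfp36 went from -0.59, -0.49 and -0.01 to -1.05 ± 0.30, -0.86 ± 0.29 and -0.57 ± 0.19. None of these passed without it (limma adjusted p = 0.555, 0.704 and 0.704), and 0% of all genes did. For Zfp36 the interval of the genotype difference in saline was -0.76 to 0.44 on the log2 scale, so smaller differences in either direction were not detectable.

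The interaction, the LPS response in KO-labelled libraries minus that in WT, asks whether genotype altered the response. No Zfp gene and 0% of all genes passed limma's adjusted p, 4 Zfp genes had an unadjusted p under 0.05 (5.97% of all genes), and voom weights called 0. Zfp217, a transcription factor bound to the CoREST corepressor, had the smallest p. It changed by 0.44 ± 0.33 in WT and by -0.76 ± 0.33 in KO-labelled libraries, a difference of -1.20 ± 0.46 (limma adjusted p = 0.773). WT libraries had 58, 54 and 82 reads with saline and 75, 106 and 83 with LPS. KO-labelled libraries had 80, 116 and 68 with saline and 86, 29 and 50 with LPS. The LPS libraries lay above the saline libraries in WT on the CPM scale, and the groups overlapped in KO-labelled libraries. Without KO-LPS replicate 1 the KO-labelled change was -1.22 ± 0.30 and passed (limma adjusted p = 0.00379), and the difference between genotypes was -1.66 ± 0.40 and did not (limma adjusted p = 0.145). Zfp526 differed by -2.43 ± 1.01 (limma adjusted p = 0.792) and Zfp791 by 3.52 ± 1.54 (limma adjusted p = 0.819). Without KO-LPS replicate 1 these were -1.35 ± 0.80 and 2.67 ± 1.61. For Zfp36 the difference was 0.15 ± 0.41, and -0.42 ± 0.26 without that library, so its direction rested on it. No Zfp gene was called for the interaction without it, beside 0.032% of all genes.

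The genes around the Zfp proteins were read from lists of known partners, beside 6.72% of all genes higher and 4.96% lower in WT. For KO-labelled libraries the share of all genes called was 3.35%, and 11.5% without KO-LPS replicate 1. Of 27 measured genes of the KRAB corepressor machinery, 1 rose and 2 fell in WT, or 11.1% called, near the 11.7% of all genes, with a median log2 change of 0.13 (0.06 over all genes). Mbd2, a reader of methylated DNA, rose by 1.35 ± 0.35. Atf7ip and Suv39h2, which support histone methylation, fell by 1.06 ± 0.27 and 1.07 ± 0.30, and both overlap a gene on the other strand (Gm44140 and Dclre1c). Of 31 genes of CCR4-NOT and messenger RNA decay, 3 fell in WT (9.68%) and none rose, also a share near that of all genes. They were Btg1 and Btg2, which link the deadenylase to its targets, by 1.78 ± 0.33 and 0.77 ± 0.25, and the subunit Cnot11, by 1.16 ± 0.26. Btg1 was also the 1 gene of this list called in KO-labelled libraries, lower by 1.26 (limma adjusted p = 0.0308), and by 1.95 without KO-LPS replicate 1, when Ddx6 fell too. Without that library 2 genes of the KRAB corepressor list, Suv39h2 and Mta3, fell in KO-labelled libraries, where 0 had been called.

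Of 22 regulators of AU-rich messages 3 rose in WT (13.6%): Ywhag, a 14-3-3 adaptor, by 1.63 ± 0.41, Mapkapk2, the kinase that phosphorylates Zfp36, by 1.55 ± 0.40, and N4bp1, a ribonuclease, by 0.95 ± 0.27. None was called in KO-labelled libraries, where 3.35% of all genes were. Without KO-LPS replicate 1, 2 of the 22 rose (N4bp1 and Zc3h12a), where 11.5% of all genes were called. Of 20 known targets of Zfp36, 7 rose and 5 fell in WT (60%, against 11.7% of all genes), with a median of 0.93. The list was chosen with earlier results of these data known. Its median gene had 21.1 reads per library, against 11.3 for all genes, and 19.0% of all genes with 20 to 100 reads were called. The list moved both ways: Il10 rose by 5.0 ± 1.05 and Cxcl2 by 3.59 ± 1.06, whereas Ptgs2 fell by 3.83 ± 1.16 and Fos by 3.68 ± 0.59. Some of these rest on few reads: Il10 had 0, 2 and 3 and Cxcl2 10, 0 and 1 in WT-Saline, and Ptgs2 9, 0 and 2 in WT-LPS. In KO-labelled libraries 2 targets rose and none fell (10%, against 3.35% of all genes). Without KO-LPS replicate 1 it was 5 and 5, where 11.5% of all genes were called. Fos, for example, changed by -1.80 ± 0.59 with that library (limma adjusted p = 0.0969) and by -3.10 ± 0.33 without it (limma adjusted p = 5.3e-09). Several of these targets are also known as genes that LPS induces.

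Other zinc finger families gave a scale for these counts. In WT, 3 of 10 Klf genes rose (30.0%), 1 of 30 Zbtb genes rose and 1 fell (6.67%), 1 of 13 Zc3h genes rose, and 0 of 7 Zscan and Zkscan genes changed. The median Klf gene had 35.9 reads per library and the median Zbtb gene 8.0, against 4.79 for Zfp genes. Differences between the families were not tested.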

How the data were processed

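RNA was sequenced from blood neutrophils in 12 libraries (4 groups of 3). Per the labels' protocols, the miRNeasy micro kit gave total RNA and Tecan's Universal Plus Total RNA chemistry, used with mouse probes, gave the libraries. The authors deposited log2 values per gene. These were log2 CPM with 0.5 added to the reads, since undoing that form returned whole numbers (tolerance 0.0001) for 100% of entries, and these recovered reads gave the depth. The build was mm10 per the submitters' processing notes; for the aligner, counter, strand setting and gene filter the status is: not given in the sources used here.

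The deposited log2 values were fitted with limma 3.58.1 (R 4.3.3): 4 group means over all 12 libraries, moderated statistics with a mean-variance trend, Benjamini-Hochberg adjustment over 9374 genes within each of 5 comparisons. The script was tested on simulated data. Symbols matched for 9372 IDs through RefSeq, and 9299 genes matched GENCODE M21, the source of coordinates, overlaps and protein patterns. RefSeq promoters matched 131 Zfp genes. A C2H2 pattern was 2 cysteines 2 to 4 residues apart, 12 residues, then 2 histidines 3 to 5 apart.

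Named Zfp genes were those called in any comparison, the 10 of highest CPM, the 5 highest per coding kb, the CCCH genes, and the 3 of smallest p where none was called; genes apart in both genotypes, called without KO-LPS replicate 1, or leading the KRAB genes, and list genes called without that library, were named after their values were seen. From each list up to 4 called genes with the largest change in WT were named. The members, lists and rules were chosen with earlier results of these data known. Alternatives covered normalization, reads added, low-read filter, trend, libraries in the fit, a replicate block, voom weights and each library left out. The 0.5 added reads shrink fold changes of low genes. Intervals of pooled read ratios cover counting error only, and those of log2 changes come from the limma fit and its spread among libraries.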

Additional observations from a re-analysis of the deposited data

How the results depend on the processing

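The count of Zfp genes called in WT was 8. It was 4 without the mean-variance trend, 5 among genes with at least 10 reads, 14 with only the WT libraries in the fit, 2 among genes without opposite-strand overlap (Zfp385a and Zfp791), and 3 to 13 with 1 library left out. It was 3 without WT-Saline replicate 1 or WT-LPS replicate 3, 4 without WT-Saline replicate 2 or WT-LPS replicate 1, and 13 without KO-LPS replicate 1. The KO-labelled count was 3. It was 0 without the trend, 0 with only those libraries in the fit, 1 among genes without overlap (Zfp950), and 0 to 11 with 1 library left out: 1 without KO-Saline replicate 2, 0 without KO-LPS replicate 2 or 3, and 11 without KO-LPS replicate 1. The cause was not tested. Other scalings and 2 reads added gave 8 to 11 and 3, and voom weights, an alternative chosen after seeing the data, gave 11 and 3. The genotype and interaction counts were 0 under every alternative run.

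Replicate numbers did not pair the samples: deviations of same-numbered libraries correlated at -0.0658 to 0.0398, and others at -0.0637 to 0.0523. With the replicate number as a block the counts were 8 and 3. No fold change of a called Zfp gene changed sign. In WT, Zfp385c and Zfp36l1 stayed past the threshold in all alternatives run, while without the trend Zfp36 (adjusted p = 0.265), Zfp36l2 (0.158), Zfp106 (0.110), Zfp652 (0.123) and Zfp385a (0.0517) lost it. Zfp36 lost it too among genes with at least 10 reads (limma adjusted p = 0.0524). Of 12 fits with 1 library left out, Zfp36 lost it in 9 (limma adjusted p up to 0.149) and Zfp652 in 7 (up to 0.226). Zfp385a and Zfp791 each lost it in 5 (up to 0.1245 and 0.0926), Zfp36l2 in 2 and Zfp106 in 1. In KO-labelled libraries each of the 3 calls was lost in 3 of those 12 fits. A quasi-likelihood and a Wald test on the recovered reads had been planned and were not run, since the deposited table holds log2 values. Depth limits most Zfp genes, 81 of which had under 5 reads per library.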

Other observations

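Promoter letters of the Zfp genes were counted beside those of all genes. The CRE letters TGACGTCA, bound by Creb and Atf proteins, stood before the start of 8 of 131 matched Zfp genes (6.11%) and of 1.62% of all 27025 genes, taking the first listed start of each gene. These were Zfp335, Zfp473, Zfp426, Zfp266, Zfp595, Zfp953, Zfp874b and Zfp523. None of the 8 was called in any comparison by limma, and only Zfp335 and Zfp473 had at least 20 reads per library. The GAS letters TTCNNNGAA stood before 11.5% of the Zfp genes and 7.18% of all genes, the ISRE letters before 0.763% and 3.04%, and the NF-kB letters before 1.53% and 1.17%. These are counts of letters in the 250 bases before a start, chosen for description after the values were seen, and the differences were not tested.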
